A study of Mus musculus with 14 samples.

Results

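Colony stimulating factor 1 (Csf1), the growth factor that keeps tissue macrophages alive, and 9 genes that mark resident macrophages were followed in heart ventricles of GX and wild-type (WT) mice. Csf1 had been chosen by its expression values, which were higher in GX mice given the compound MRL5 than in GX mice given DMSO, and Csf1r, Lyz2, C1qa, C1qb, C1qc, Cd68, Mrc1, Adgre1 and Cd163 were taken as macrophage markers. All 10 were measured, among 14161 genes in all. Polyadenylated RNA of whole ventricle was sequenced from 14 male mice, 1 library per mouse, 4 hours after an injection into the abdomen. The groups were 5 GX mice given MRL5, 4 GX mice given the solvent DMSO, 2 WT mice given MRL5 and 3 WT mice given DMSO. GX mice carried the NaV1.5-GX form of the cardiac sodium channel on both alleles (GX/GX), and per the labels MRL5, known here only by its code name, blocks that form strongly. The ages of the mice are not given in the sources used here. Values are the deposited signal, named scaled reads per base, and the levels of different genes are not compared with each other because the scaling is not stated. Sums and ratios of genes serve only to compare libraries. A sum weighs each gene by that unstated scaling and leans most on the genes with the highest values.

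Resident macrophages of the heart lie between the cardiomyocytes, clear dying cells and debris, and make contact with conducting and contracting muscle cells. They depend on signals through the receptor tyrosine kinase CSF1R, which binds CSF1, made largely by stromal and endothelial cells, and a second ligand, IL-34. Genes of macrophages are switched on with the transcription factor PU.1, encoded by Spi1, and inflammatory signals raise Csf1 in many cell types through NF-kappa B.

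Promoter sequences are shown for Csf1, the member chosen for its response, for C1qb and C1qc, whose levels followed each other closely over the libraries, and for Mrc1, the marker with the highest correlation with Csf1 over the 14 libraries. Each is the 250 bases before the start of the gene in RefSeq (GRCm38.p6), read 5′ to 3′ on the strand of the gene. Gene positions elsewhere in the text are those of GENCODE, by which the C1qc and Mrc1 windows reach into the gene. Csf1 is from chr3:107760470-107760719 (minus strand), C1qb from chr4:136886201-136886450 (minus strand), C1qc from chr4:136892915-136893164 (minus strand) and Mrc1 from chr2:14229164-14229413 (plus strand). Capitals mark matches, on either strand, to the kappa B consensus of NF-kappa B, the PU.1 core GAGGAA or the AP-1 motif TGANTCA.
Csf1: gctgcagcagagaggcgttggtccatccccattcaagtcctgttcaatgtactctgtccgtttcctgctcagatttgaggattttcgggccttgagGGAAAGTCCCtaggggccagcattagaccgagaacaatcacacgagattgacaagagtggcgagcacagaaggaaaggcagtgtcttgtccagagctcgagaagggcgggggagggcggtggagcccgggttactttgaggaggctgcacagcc
C1qb: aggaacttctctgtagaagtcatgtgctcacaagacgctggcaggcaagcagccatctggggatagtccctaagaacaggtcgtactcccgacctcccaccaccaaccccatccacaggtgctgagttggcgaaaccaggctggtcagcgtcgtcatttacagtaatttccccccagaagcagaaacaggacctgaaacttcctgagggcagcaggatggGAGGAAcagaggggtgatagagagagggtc
C1qc: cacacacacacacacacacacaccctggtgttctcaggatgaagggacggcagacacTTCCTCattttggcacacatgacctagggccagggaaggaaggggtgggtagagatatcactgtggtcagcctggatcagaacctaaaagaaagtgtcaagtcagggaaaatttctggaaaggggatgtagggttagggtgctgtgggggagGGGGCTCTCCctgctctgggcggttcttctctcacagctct
Mrc1: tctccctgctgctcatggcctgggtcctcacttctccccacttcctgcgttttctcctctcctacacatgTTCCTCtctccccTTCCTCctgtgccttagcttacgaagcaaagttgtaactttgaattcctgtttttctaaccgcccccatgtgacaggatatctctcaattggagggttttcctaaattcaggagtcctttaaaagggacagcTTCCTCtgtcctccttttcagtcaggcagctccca
The Csf1 window held 1 kappa B match, GGAAAGTCCC, which begins 154 bases before the start. C1qb held 1 PU.1 core, 30 bases before the start, C1qc held 1 at 193 bases and 1 kappa B match, GGGGCTCTCC, at 41 bases, and Mrc1 held 3 at 180, 167 and 35 bases. The windows of Lyz2 and Cd163, not printed, held no match to any of these motifs, and that of Cd68 held 1 PU.1 core and 2 AP-1 matches. None of the 10 matches in the 7 members with a promoter sequence overlapped another match. Of 32851 promoter windows of the same length, 23.3% held the PU.1 core, 6.75% the AP-1 motif and 7.25% the kappa B motif. These motifs were chosen after the expression values were seen, and a match describes letters and shows no binding.

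The deposited column sums were 17244042 to 22163644, genes of the mitochondrial genome made up 38.9% to 49.7% of them, and read depth is unknown. Library names put GX MRL5 4, WT DMSO 2 and WT DMSO 3 in a set numbered 174 and the other 11 libraries in a set numbered 148. All 7 cardiomyocyte genes examined were measured in every library, but most of them are expressed in atria too. Myl2, the myosin light chain of ventricles, was at 77255 to 118073 over the 14 libraries. The value of Myl7, an atrial myosin light chain, reached 133 in the library GX MRL5 4, 643 in GX DMSO 3 and 3967 in WT DMSO 2, and at most 20.7 elsewhere, so WT DMSO 2 in particular goes against a label of ventricle alone. All 9 macrophage markers had a value above 0 in all 14 libraries. Bulk tissue cannot tell fewer macrophages from less RNA per macrophage.

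Csf1 (chromosome 3, 107741048 to 107760469, minus strand) was higher in GX mice given MRL5 than in GX mice given DMSO, and this difference is the one it was chosen for. Its values were 428.8, 595.8, 810.9, 933.0 and 692.9 in GX MRL5 libraries 1 to 5, against 367.9, 363.9, 433.8 and 454.8 in GX DMSO libraries 1 to 4. In WT mice the values were 618.4 and 484.2 with MRL5, against 524.8, 683.7 and 614.5 with DMSO. GX MRL5 1 lay inside the range of the GX DMSO libraries, and the other 4 GX MRL5 libraries lay above all of them. The WT groups overlapped, and every GX DMSO library lay below every WT library of either treatment. Under DMSO alone, 4.02% of all genes had every GX library below every WT library. The choice of Csf1 used these same GX DMSO values and favoured genes in which they are low.

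The mean of Csf1 was 692.3 ± 194.1 in GX MRL5 mice (SD, n = 5) and 405.1 ± 46.1 in GX DMSO mice (SD, n = 4). It was 551.3 ± 94.9 in WT MRL5 mice (SD, n = 2) and 607.7 ± 79.7 in WT DMSO mice (SD, n = 3). By mean, the groups ranked GX MRL5, WT DMSO, WT MRL5 and GX DMSO. The first 3 overlap in their single values, and GX DMSO stands below both WT groups. The log2 fold change of Csf1 with MRL5 was 0.73 (SE 0.18) in GX mice, and GX against WT gave -0.58 (SE 0.21) under DMSO and 0.29 (SE 0.23) under MRL5. These 3 contrasts use the GX libraries on which Csf1 was chosen and are given with no test. With the library set as a covariate, the value for GX against WT under DMSO was -0.27. Leaving out each library in turn, the fold change of Csf1 with MRL5 in GX mice lay between 0.61 and 0.89.

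In WT mice, which did not serve for the choice of Csf1, MRL5 against DMSO gave a log2 fold change of -0.14 (SE 0.25, 95% interval -0.67 to 0.39). It did not pass limma's test with Benjamini-Hochberg adjustment over all genes (adjusted p = 0.931). The interval spans values on both sides of 0. With the library set as a covariate, the value was 0.17, of the opposite sign. The interaction of Csf1, which is the MRL5 effect in GX mice minus that in WT mice, was 0.87 (SE 0.31) on the log2 scale and 0.47 with the library set as a covariate. It also rests on the libraries used for the choice and is given with no test. Summed signal of 9 endothelial genes was 54391 to 69125 in GX MRL5 mice, against 49214 to 82076 in GX DMSO mice, and that of 7 fibroblast genes was 9369 to 13914, against 8904 to 12864, in the same order. Both sums overlapped between the GX groups, and the part of these cells in the value of Csf1 was not tested.

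**Figure D1:**
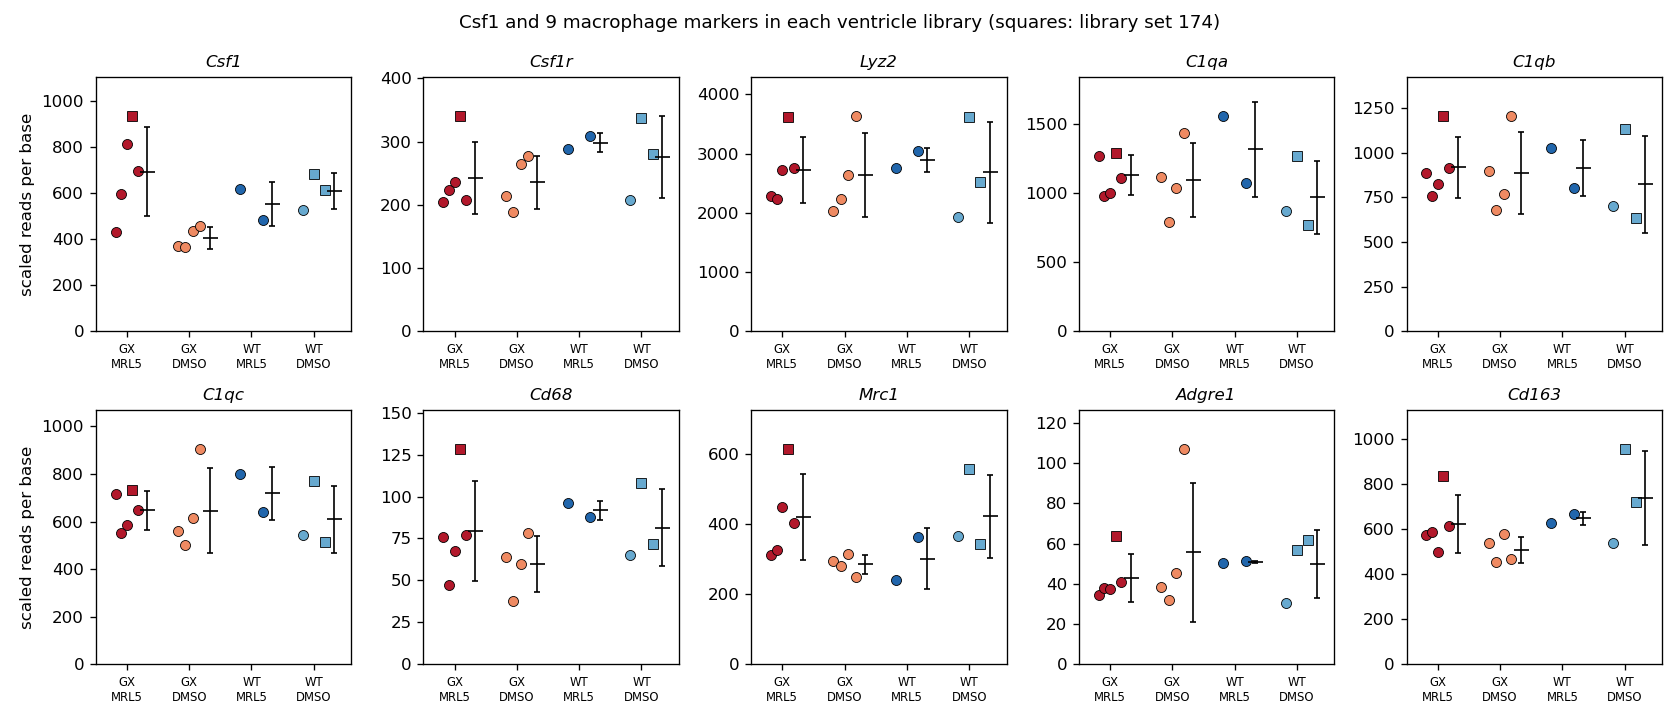
Values of Csf1 and the 9 macrophage markers in each library (points; squares are library set 174), with the mean and SD of each group (bars); the vertical axis is the deposited signal from 0. For Csf1, 4 of 5 GX MRL5 libraries lie above the 4 GX DMSO libraries, and GX MRL5 4 has the highest value of 5 of the 10 genes.

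Csf1r, the receptor of CSF1 (chromosome 18, 61100598 to 61132149, plus strand), was nearly level with MRL5 in GX mice while its ligand was higher there. Csf1r was at 204.7, 222.7, 236.7, 340.3 and 206.9 in GX MRL5 libraries, against 213.1, 188.6, 264.2 and 277.4 in GX DMSO libraries. The WT libraries had 287.6 and 308.6 with MRL5, against 208.1, 336.8 and 280.7 with DMSO. Within each genotype the groups overlapped, and the WT MRL5 pair lay above every GX library but GX MRL5 4. The fold change with MRL5 was 0.029 on the log2 scale in GX mice (SE 0.17, 95% interval -0.34 to 0.40), a range that reaches about as far below 0 as above it. In WT mice it was 0.14 (SE 0.23, 95% interval -0.36 to 0.64).

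The ratio of Csf1 to Csf1r within a library was 2.10 to 3.43 in GX MRL5 mice, against 1.64 to 1.93 in GX DMSO mice. It was 1.57 to 2.15 in WT MRL5 mice, against 2.03 to 2.52 in WT DMSO mice. The GX groups did not overlap in this ratio, which contains the gene chosen for that difference. Its size has no meaning of its own, because the 2 genes are scaled in a way that is not stated.

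Of 26 other genes around the CSF1 receptor, namely ligands, other colony stimulating factor receptors, transcription factors and signalling proteins, 23 were tested. In GX mice 16 were higher and 7 lower with MRL5 (median log2 fold change 0.08), where 51.5% of all 14156 genes tested were higher (median 0.0055). That median was 0.026 with the library set as a covariate, and leaving out each GX library in turn it lay between 0.029 without GX DMSO 2 and 0.17 without GX DMSO 4. None of the 23 passed limma's test with Benjamini-Hochberg adjustment, where 0% of all genes did. The 3 with an unadjusted p under 0.05, where 4.13% of all genes were, were all higher, namely Socs3, a feedback inhibitor of cytokine receptors (log2 fold change 1.33, SE 0.53), Runx1, a transcription factor of blood cells (0.98, SE 0.44), and Cblb, a ubiquitin ligase (0.36, SE 0.16). Socs3 reached 177 in GX MRL5 3 and at most 46.5 in the remaining GX MRL5 mice, against at most 22.1 in GX DMSO mice. Il34, the other ligand of CSF1R, was at 33.6 to 54.3 in GX MRL5 mice, against 23.5 to 56.1 in GX DMSO mice (log2 fold change 0.28, 95% interval -0.29 to 0.85). Spi1, which encodes PU.1, had a fold change of -0.05 (95% interval -0.58 to 0.47). In WT mice 12 of the 23 were higher and 11 lower with MRL5, with a median of 0.03, where 49.7% of all genes were higher.

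Complement C1q, the recognition part of the classical complement pathway, is built from 3 chains, and in the heart their RNA comes chiefly from macrophages. C1qb, C1qc and C1qa lie side by side on chromosome 4 within 18.7 kb, from 136880129 to 136898803, all on the minus strand. C1qa was at 1267, 983, 1004, 1292 and 1113 in GX MRL5 libraries, against 1122, 790, 1039 and 1437 in GX DMSO libraries. It was at 1560 and 1075 in WT MRL5 libraries, against 871, 1271 and 773 in WT DMSO libraries. The C1qa groups overlapped in both genotypes, and WT MRL5 1 had the highest value of all. C1qb ran from 756 to 1207 in GX MRL5 mice, against 678 to 1206 in GX DMSO mice, and from 804 to 1025 in WT MRL5 mice, against 633 to 1134 in WT DMSO mice. C1qc ran from 551 to 734 in GX MRL5 mice, against 500.4 to 905 in GX DMSO mice, and from 638 to 798 in WT MRL5 mice, against 516 to 771 in WT DMSO mice.

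The log2 fold changes with MRL5 in GX mice were 0.069 for C1qa (95% interval -0.31 to 0.45), 0.064 for C1qb (-0.35 to 0.48) and 0.031 for C1qc (-0.32 to 0.39). In WT mice they were 0.45 (-0.07 to 0.97), 0.19 (-0.38 to 0.76) and 0.25 (-0.23 to 0.73) in the same order. All of these intervals included 0. The WT values rest on few mice. Leaving out each library in turn, C1qa lay between 0.18 without WT MRL5 1 and 0.72 without WT MRL5 2, C1qb between 0.014 without WT MRL5 1 and 0.44 without WT DMSO 2, and C1qc between 0.09 without WT MRL5 1 and 0.43 without WT DMSO 2. The interaction, the MRL5 effect in GX mice minus that in WT mice, was -0.38 for C1qa (95% interval -1.03 to 0.27), -0.12 for C1qb (-0.83 to 0.58) and -0.22 for C1qc (-0.82 to 0.38), and none passed (adjusted p = 0.801, 0.943 and 0.878 by limma). The chains followed each other over the libraries more closely than other pairs of markers. On the log2 scale over 14 libraries, C1qa with C1qc gave Pearson's r = 0.929 and Spearman's rho = 0.943 (adjusted permutation p = 0.000225 for each, over 45 pairs). C1qa with C1qb gave r = 0.900 and rho = 0.938 (adjusted permutation p = 0.000225 for each). C1qb with C1qc gave r = 0.898 (adjusted permutation p = 0.00105) and rho = 0.899 (adjusted permutation p = 0.00135). Without the 2 libraries farthest from the median, r was 0.928, 0.913 and 0.878 in the same order, and within set 148 it was 0.922, 0.915 and 0.907. The ratio of C1qa to C1qb stayed between 1.07 and 1.52 and that of C1qc to C1qb between 0.609 and 0.815 over all 14 libraries.

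Lyz2, the lysozyme of myeloid cells, ran from 2228 to 3614 in GX MRL5 mice, against 2040 to 3635 in GX DMSO mice. In WT mice it ran from 2754 to 3037 with MRL5, against 1935 to 3614 with DMSO. The groups overlapped throughout, and the fold change with MRL5 was 0.059 in GX mice (95% interval -0.36 to 0.48) and 0.15 in WT mice (-0.42 to 0.73) on the log2 scale. Cd68, a lysosomal membrane protein of phagocytes, was at 76.1, 47.5, 67.6, 128 and 76.9 in GX MRL5 libraries, against 64.1, 37.6, 59.6 and 78.0 in GX DMSO libraries. It was at 95.8 and 87.9 in WT MRL5 libraries, against 65.1, 108 and 71.5 in WT DMSO libraries. The highest Cd68 value was in GX MRL5 4, and the fold change in GX mice was 0.37 (95% interval -0.18 to 0.93) with that library and 0.18 without it.

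Adgre1 encodes F4/80, the surface receptor by which mouse macrophages are usually stained. It was at 34.7, 38.0, 37.5, 63.8 and 40.8 in GX MRL5 libraries, against 38.3, 31.8, 45.3 and 107 in GX DMSO libraries. It was at 50.6 and 51.2 in WT MRL5 libraries, against 30.7, 56.9 and 62.0 in WT DMSO libraries. GX DMSO 4 stood apart, with a value well above the next highest of 63.8. The fold change of Adgre1 with MRL5 in GX mice was -0.23 (95% interval -0.91 to 0.44) with GX DMSO 4 and 0.13 without it. In GX DMSO 4 the neutrophil genes S100a8 and S100a9, at 32.9 and 56.3, were also at their highest of all libraries, and their part in the value of Adgre1 was not tested.

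Mrc1, the mannose receptor CD206 of tissue macrophages (chromosome 2, 14229392 to 14332057, plus strand), had the largest fold change of the 9 markers in GX mice. Mrc1 was at 312.4, 327.2, 448.3, 615.3 and 402.9 in GX MRL5 libraries, against 296.7, 280.6, 315.0 and 251.0 in GX DMSO libraries. In WT mice it was at 241.1 and 363.7 with MRL5, against 366.4, 558.6 and 342.6 with DMSO. As for Csf1, 4 of the 5 GX MRL5 libraries lay above every GX DMSO library, and GX MRL5 1 lay among them. The 4 GX DMSO libraries lay below the 3 WT DMSO libraries.

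Mrc1 averaged 421.2 ± 121.9 in GX MRL5 mice (SD, n = 5) and 285.8 ± 27.1 in GX DMSO mice (SD, n = 4). The log2 fold change was 0.52 (SE 0.20, 95% interval 0.10 to 0.94), with an unadjusted p of 0.0198 and an adjusted p of 0.999 by limma, so it did not pass. Leaving out each library in turn, this fold change lay between 0.37 and 0.61. In WT mice Mrc1 averaged 302.4 ± 86.7 with MRL5 (SD, n = 2) and 422.5 ± 118.4 with DMSO (SD, n = 3), a fold change of -0.48 (95% interval -1.05 to 0.10, adjusted p = 0.831 by limma). That value was -0.18 without WT MRL5 1 and -0.77 without WT MRL5 2. The interaction of Mrc1 was 0.99 (SE 0.33, 95% interval 0.28 to 1.71), with an unadjusted p of 0.00976 and an adjusted p of 0.755 by limma. With the library set as a covariate it was 0.55.

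Under DMSO, GX against WT gave Mrc1 a log2 fold change of -0.53 (95% interval -1.01 to -0.05, unadjusted p = 0.0327, adjusted p = 0.866 by limma). It was -0.31 without WT DMSO 2, the library with the most Myl7, and -0.19 with the library set as a covariate. Whether the atrial RNA or the library set has a part in these values was not tested. Under MRL5 the value for GX against WT was 0.46 (95% interval -0.07 to 0.99).

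Cd163, the scavenger receptor of haemoglobin bound to haptoglobin, was at 574.8, 587.8, 499.7, 835.5 and 612.3 in GX MRL5 libraries, against 535.7, 454.3, 576.8 and 468.2 in GX DMSO libraries. It was at 626.3 and 667.7 in WT MRL5 libraries, against 538.6, 954.5 and 717.8 in WT DMSO libraries. Its groups overlapped in every comparison, with 3 of 4 GX DMSO libraries below the lowest WT DMSO library. The fold change with MRL5 was 0.27 in GX mice (95% interval -0.07 to 0.62) and -0.15 in WT mice (-0.61 to 0.32). In GX mice it was 0.16 without GX MRL5 4 and 0.16 with the library set as a covariate. GX against WT under DMSO gave -0.50 (95% interval -0.89 to -0.11, unadjusted p = 0.015, adjusted p = 0.866 by limma). That value was -0.30 without WT DMSO 2 and -0.11 with the library set as a covariate.

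**Figure D2:**
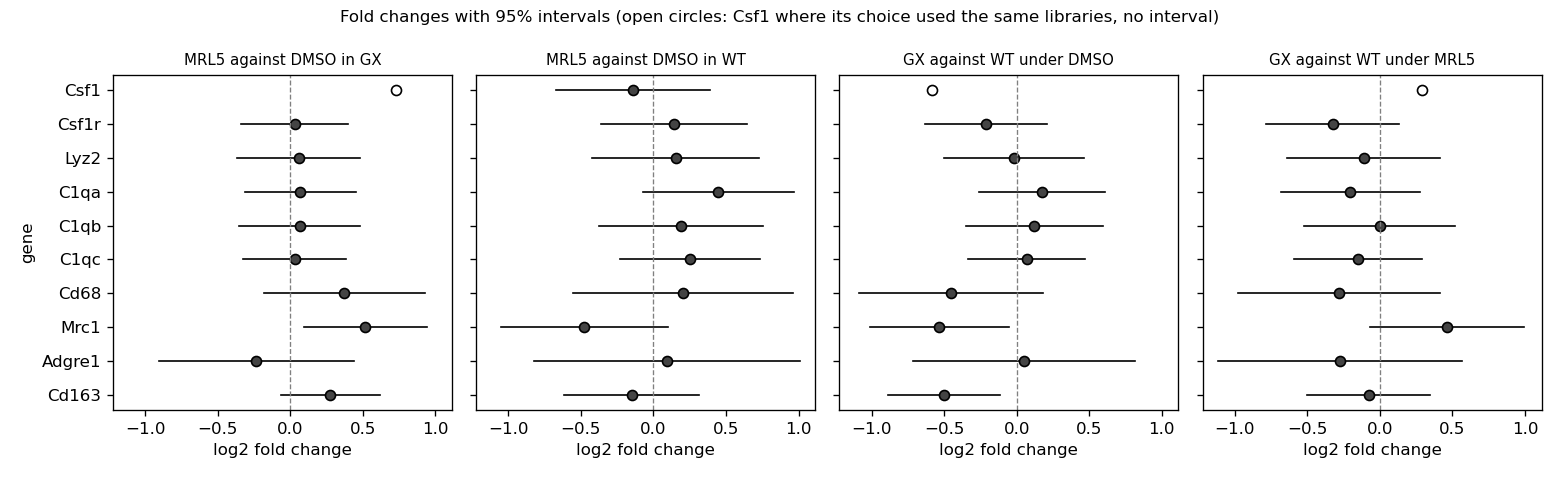
Log2 fold changes of the 10 genes (points) with 95% intervals (lines) in the 4 pairwise comparisons, on a shared axis; open circles are Csf1 where its choice used the same libraries, without an interval. In GX mice given MRL5 the interval of Mrc1, 0.10 to 0.94, leaves out 0 and those of the other 8 markers include it.

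Read over the whole set of 9 markers, MRL5 in GX mice gave 8 positive fold changes and 1 negative one (median log2 fold change 0.064), against 51.5% positive and a median of 0.0055 over all 14156 genes. With the library set as a covariate, with only set 148, or without the 3 libraries with the highest Myl7, 4 of the 9 were positive, with medians of -0.015, -0.017 and -0.026. Of single libraries, leaving out GX MRL5 4 left 4 of 9 positive (median -0.017), leaving out GX DMSO 2 left 3 (median -0.054), leaving out GX DMSO 1 left 5 (median 0.081) and leaving out GX DMSO 4 gave 9 (median 0.22). The count stayed at 8 without GX MRL5 2 (median 0.13) and without GX MRL5 3 (median 0.099). None of the 9 passed at an adjusted p under 0.05 with limma, where 0% of all genes did. At an unadjusted p under 0.05 there was 1 of 9, Mrc1, where 4.13% of all genes, or 585, passed. In no marker were the GX MRL5 and GX DMSO libraries fully apart, where 1.1% of all genes were. The narrowest interval, that of Cd163, ran from -0.07 to 0.62, so a shift of the size of the median could not be resolved.

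In WT mice MRL5 gave 7 positive and 2 negative fold changes, with a median of 0.15, against 49.7% positive and a median of -0.0015 over all genes. With the library set as a covariate the median was 0.54, and without WT DMSO 2 it was 0.39, with 8 positive. Without WT DMSO 1 it was -0.045, with 4 positive, so the sign of this median rests on that library. Leaving out WT MRL5 1 gave 0.098 and leaving out WT MRL5 2 gave 0.091. None of the 9 passed at an adjusted p under 0.05, where 0% of all genes did, or at an unadjusted p under 0.05, where 5.64% did, or 799 genes. In no marker were the WT groups apart, where 19.2% of all genes were. Under DMSO, GX against WT gave 4 positive and 5 negative values, with a median of -0.017, against 46.6% positive and a median of -0.017 over all genes. With equal sums over all genes 2 were positive, where the median of all genes was -0.11, and with the library set as a covariate 7 were positive, with a median of 0.22. Without GX DMSO 4 there was 1 positive, with a median of -0.30, without WT DMSO 1 there were 2, with a median of -0.26, and without WT DMSO 2 there were 5, with a median of 0.17. Without WT DMSO 3 there were 2 (-0.044), and without GX DMSO 1 or GX DMSO 2 there were 5 (0.095 and 0.051). None passed at an adjusted p under 0.05 (0% of all genes), and 2 of 9, Mrc1 and Cd163, both lower, passed at an unadjusted p under 0.05, where 5.67% of all genes, or 802, did and 2.72% were lower. In 1 marker, Mrc1, the GX DMSO libraries were all below the WT DMSO libraries, where that held for 4.02% of all genes and 7.42% were apart in either direction.

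Under MRL5, GX against WT gave 1 positive and 8 negative values, with a median of -0.15, against 49.4% positive and a median of -0.0025 over all genes. Without WT MRL5 1 there were 4 positive, with a median of -0.12, while leaving out WT MRL5 2 gave a median of -0.27 and leaving out GX MRL5 2 one of -0.096. None passed at an adjusted p under 0.05 (0% of all genes) or at an unadjusted p under 0.05 (6.58% of all genes, or 932). In no marker were these groups apart, where 9.25% of all genes were. For the interaction, 3 markers were positive and 6 negative, with a median of -0.11, against 52.2% positive and a median of 0.016 over all genes. That median was -0.47 with the library set as a covariate, and leaving out each library in turn it lay between -0.33 without WT DMSO 2 and 0.075, with 5 positive, without WT DMSO 1. Without GX DMSO 4 it was 0.042, with 6 positive. None passed at an adjusted p under 0.05 (0% of all genes), and 1, Mrc1, passed at an unadjusted p under 0.05, where 6.39% of all genes, or 904, did. The comparisons share libraries, so their counts are not independent of each other. In the authors' deposited table the smallest p of the 9 markers was 0.0129 for Mrc1 in GX mice (q = 1), and the smallest in WT mice was 0.186, also for Mrc1 (q = 0.999).

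Libraries of the same group differed widely in the markers. GX MRL5 4 had the highest value of Csf1r, C1qb, Cd68, Mrc1 and Csf1, and all 9 markers were above their mean there, by 0.48 on average on the log2 scale. WT DMSO 2 also had all 9 markers above their mean, by 0.43 on average. GX DMSO 2 had none above its mean (-0.45 on average) and the lowest value of Csf1r, C1qc, Cd68, Cd163 and Csf1. GX DMSO 4 was highest in Lyz2, C1qc and Adgre1 and next to lowest in Mrc1 and Cd163. The SD of the mean log2 level of the 9 markers within groups was 0.286. The medians of the markers in the comparisons above were smaller than that with all 14 libraries and no covariate. Larger medians came for MRL5 in WT mice with the library set as a covariate (0.54), with only set 148 (0.49), and without WT DMSO 2 or the 3 libraries with the highest Myl7 (0.39 each). For the interaction they were -0.47, -0.41, -0.33 and -0.43 in the same order. The median for GX against WT under DMSO without GX DMSO 4 (-0.30) was larger too. This SD describes single libraries and is not the error of a median fold change between groups.

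**Figure D3:**
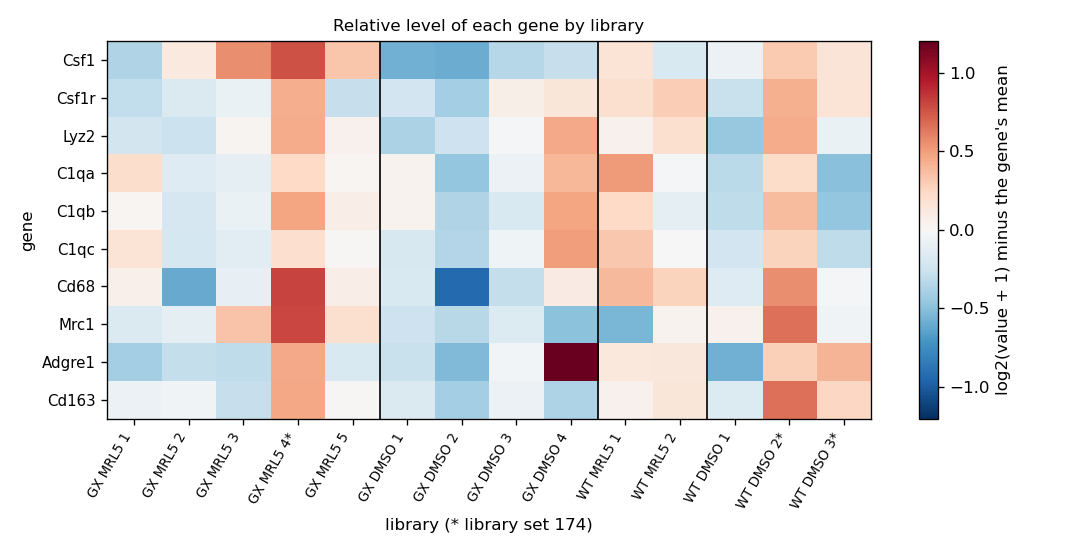
Level of each gene in each library as log2(value + 1) minus the mean of that gene over the 14 libraries (colour; asterisks mark library set 174, black lines divide the groups). GX MRL5 4 and WT DMSO 2 are above the mean for all 9 markers, and GX DMSO 2 is below it for all 9.

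Of the 36 pairs of markers, 35 had a positive correlation over the 14 libraries, with a median r of 0.59 and a range of -0.02 to 0.929. Within set 148 the median was 0.556 and 8 pairs were negative, 7 of them pairs with Mrc1. Mrc1 stood aside from C1qa, with r = -0.02 (adjusted permutation p = 0.938) and rho = -0.14 (adjusted permutation p = 0.683), with r = 0.21 without the 2 libraries farthest from the median. Within set 148 the r of Mrc1 was -0.493 with C1qa, -0.469 with C1qc, -0.455 with Adgre1 and -0.437 with C1qb. With Cd163 it was 0.185 there. Over the 14 libraries Mrc1 with Cd163 gave r = 0.688 (adjusted permutation p = 0.0196) and rho = 0.516 (adjusted permutation p = 0.109). After the mean of each group was taken away, the r of Mrc1 was 0.675 with Cd163, 0.641 with Csf1r, 0.583 with Lyz2 and 0.559 with Cd68. It was then 0.406 with C1qb, 0.209 with Adgre1, 0.156 with C1qc and 0.142 with C1qa. The ratio of Mrc1 to C1qb ran from 0.208 to 0.544, a wider range than that of the C1q genes among themselves. A wide range was not particular to Mrc1, since the ratio of Cd163 to C1qb ran from 0.388 to 1.13. All of these correlations share libraries and scaling, and those with the group means left in include the differences between groups. Those after the group means were taken away were not recomputed without single libraries.

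Csf1 was set beside the markers as a description, with no test, since its values in the GX libraries are the ones it was chosen on. Over the 14 libraries, with the differences between groups left in, Pearson's r with Csf1 was highest for Mrc1 (r = 0.729, Spearman's rho = 0.71). Without the 2 libraries farthest from the median of Csf1, the r of Mrc1 was 0.578, and within library set 148, which holds 11 libraries, it was 0.563. After the mean of each group was taken away, the r of Csf1 was 0.71 with its receptor Csf1r, 0.684 with Lyz2 and 0.573 with Mrc1, so Mrc1 was not the highest within groups. GX MRL5 4 had the highest value of Csf1, Csf1r and Mrc1, and these values within groups were not recomputed without that library. With the group differences left in, Csf1 with Csf1r gave r = 0.493 and rho = 0.53, with r = 0.183 without the 2 libraries farthest from the median of Csf1 and r = 0.164 within set 148. Set 174 holds 3 libraries, too few for a value.

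**Figure D4:**
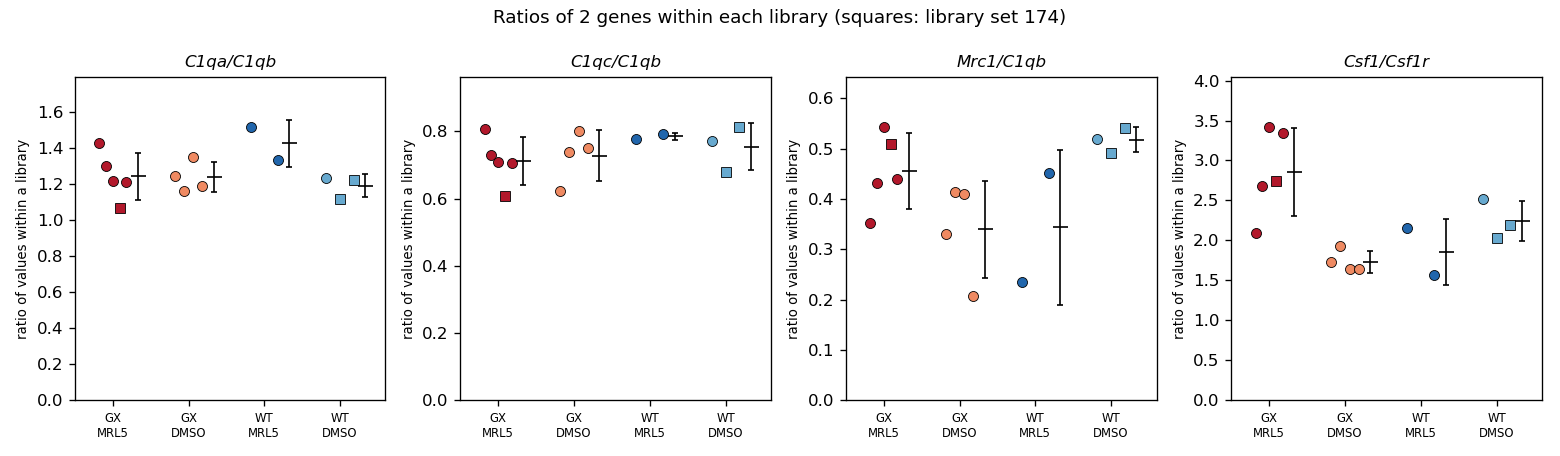
Ratio of 2 genes within each library (points; squares are library set 174) with the mean and SD of each group (bars), from 0. The ratios of the C1q chains lie in a narrow band over all groups, and Csf1/Csf1r runs from 2.10 to 3.43 in GX MRL5 mice, against 1.64 to 1.93 in GX DMSO mice.

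Of 32 other genes of resident macrophages listed, 30 were tested, and with MRL5 in GX mice 24 were higher and 6 lower (median log2 fold change 0.10), where 51.5% of all genes were higher. Without GX MRL5 4, the library with the highest summed signal of these genes, 15 were higher and 15 lower, with a median of -0.006, and with the library set as a covariate the counts were the same, with a median of -0.0045. Without GX DMSO 2 there were 20 higher, with a median of 0.047. None passed the adjusted test, where 0% of all genes did, and the 1 with an unadjusted p under 0.05, where 4.13% of all genes were, was Cx3cr1, the fractalkine receptor (log2 fold change 0.85, SE 0.33, adjusted p = 0.999 by limma). Cx3cr1 was at 24.8, 38.1, 41.6, 96.1 and 44.9 in GX MRL5 libraries, against 20.2, 22.4, 24.2 and 30.8 in GX DMSO libraries. The same 4 GX MRL5 libraries that were above all GX DMSO libraries for Csf1 and Mrc1 were above them for Cx3cr1. Csf1 was chosen on these libraries and Cx3cr1 named for its p in them, so this match is a description and no separate evidence. Lyve1, a hyaluronan receptor of vessel-associated macrophages, had a fold change of 0.46 (95% interval -0.03 to 0.94), and Timd4, a receptor for dying cells on self-renewing macrophages, one of 0.09 (-0.85 to 1.03). In WT mice 19 of the 30 were higher with MRL5 and 11 lower, with a median of 0.07, where 49.7% of all genes were higher. GX against WT under DMSO had 10 higher and 20 lower, with a median of -0.12, where 46.6% of all genes were higher (median -0.017). Against the direction of most of the 30 genes, Aif1, an actin-binding protein of macrophages, was higher by 1.16 on the log2 scale (SE 0.47, unadjusted p = 0.0273, adjusted p = 0.866 by limma). It was the 1 gene of the 30 with an unadjusted p under 0.05, where 5.67% of all genes were.

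Markers of other blood cells varied by library. Of 12 monocyte genes, 6 were tested, and their summed signal was 1362 to 1983 in GX MRL5 mice, against 1391 to 1710 in GX DMSO mice, and 1209 to 1497 in WT MRL5 mice, against 1150 to 1511 in WT DMSO mice. With MRL5, 4 of the 6 were higher in GX mice (median log2 fold change 0.32) and 1 in WT mice (-0.37). The shares over all genes were 51.5% and 49.7%. GX against WT had 4 higher under DMSO (median 0.017) and 5 under MRL5 (median 0.71), where 46.6% and 49.4% of all genes were. None passed the adjusted test, where 0% of all genes did. These counts were not recomputed under the alternatives. Ccr2, the chemokine receptor of monocytes that enter tissue, reached 106 in GX MRL5 4 and at most 54.8 in the remaining GX MRL5 mice, against at most 62.9 in GX DMSO mice. It was at 20.7 and 40.0 in WT MRL5 libraries, against 45.9 to 76.1 in WT DMSO libraries (log2 fold change -0.99, SE 0.41, adjusted p = 0.831 by limma). The sum of 4 neutrophil genes was 24.5 to 67.6 in GX MRL5 mice, against 18.8 to 99.4 in GX DMSO mice. Cd79a, of B cells, reached at most 16.6 and Cd4, of T cells, at most 19.4 in any library. Many genes of these lists had no deposited value. Values were there for 1 of 9 T and NK cell genes, 2 of 4 B cell genes, 4 of 11 neutrophil genes and 6 of 12 monocyte genes. None of the genes with values was at 0 in all libraries, which says nothing of the genes without values. Ptprc (CD45), carried by all white blood cells, was at 65.4 to 127 in GX MRL5 mice, against 54.2 to 134 in GX DMSO mice. The part of these cells in the values of the members was not tested.

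Over 12241 genes with a mean of at least 10, those most like Csf1 over the 14 libraries were F11r (r = 0.938), an adhesion molecule of tight junctions, B4galt1 (0.864), a galactosyltransferase, Mettl6 (0.861), a methyltransferase, Cx3cr1 (0.856) and Msr1 (0.850), a scavenger receptor of macrophages. Those most like the mean of the 9 markers were Folr2 (0.905), a folate receptor, Nmral1 (0.883), Cbr2 (0.882), a carbonyl reductase, Lgals3bp (0.869), a galectin-binding protein, and B4galnt1 (0.868), an enzyme of ganglioside synthesis. These correlations are a description of 14 libraries, the highest of many, and carry no test.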

How the data were processed

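RNA was measured in 14 libraries of mouse heart ventricle, grouped by genotype and treatment as the labels give them. The labels list 5 GX mice given MRL5 and the design text 4; all 5 were used. The tools named in the submitters' processing notes are kallisto and sleuth 0.3.0, with the build GRCm38. The authors deposited a signal per gene and library, in scaled reads per base. Neither scaling nor depth is stated, so counting error cannot be given. For MRL5 against DMSO in each genotype the authors deposited p-values and q-values. The authors also gave effects, taken here as natural log values and not printed.

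Of 14307 entries, 146 with values identical to another were left out, and 21 symbols turned into dates by a spreadsheet were restored. Genes at a value of at least 1 in at least 2 libraries (14156) were tested with limma 3.58.1 in R 4.3.3 (trend, robust) on log2(value + 1), which understates changes of low genes, with 1 mean per group, 10 residual degrees of freedom and Benjamini-Hochberg adjustment over all of them. Tests were two-sided, an adjusted p under 0.05 was called, and the fit was tested on simulated data. Permutation p-values of correlations used 100000 orders of the libraries, the observed one included, in numpy 2.4.6, with ranks from scipy 1.17.1. Positions are those of the GENCODE annotation of GRCm38. Replicate numbers come from record order and tie no mice together. No 2 libraries were identical (highest correlation 0.9841). The division of reads between overlapping genes is not stated.

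The members, the gene lists and the tests were chosen with earlier results of these data known. All members were named; of each list, up to 4 genes with the smallest p per comparison could be named, with defining markers of cell types, and the 5 genes most like Csf1 or the marker mean. Il34, Spi1, C1ra and C1s1 were named for their roles, after their values were seen. Alternatives were other scalings, filters and a pseudocount of 0.1, only the groups compared, the library set as a covariate, libraries of set 148 alone, and leaving out each library in turn. The kappa B consensus replaced a narrower form of that motif that was searched first.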

Additional observations from a re-analysis of the deposited data

Results flagged for a closer look

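Csf1r and Adgre1 in GX MRL5 4 lay far from the other GX MRL5 libraries. Csf1r was at 340.3 there, against 204.7 to 236.7 in the other 4, and Adgre1 was at 63.8, against 34.7 to 40.8. In each, the gap to the next library, as a share of the range of the group, was above Dixon's critical value for 5 values, and 20 groups of values were examined, of which chance marks about 1 in 20. GX MRL5 4 belongs to library set 174 and had Myl7 at 133 and Ccr2 at 106, and the part of these in the values was not tested.

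For Mrc1, the effect of MRL5 in GX mice exceeded that in WT mice by 0.99 on the log2 scale. The same number, 0.99, is the amount by which GX against WT was higher under MRL5 than under DMSO, since both are 1 interaction term of the fit. Its unadjusted p was 0.00976 and its adjusted p 0.755 by limma, so it does not pass when corrected for all genes. Over the alternatives it lay between 0.55, with the library set as a covariate, and 1.29, without WT MRL5 2.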

How the results depend on the processing

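In all, 63 results were recomputed under 24 alternatives. Leaving out the 3 libraries with the highest Myl7 (GX MRL5 4, GX DMSO 3 and WT DMSO 2), and the recomputing of 3 gene list medians, were chosen after seeing the data. No tested member passed the adjusted test under any of them. The count of genes called, 0 in each comparison, was 1 for GX against WT under MRL5 with only the groups compared, and 1 for the difference between effects with equal sums over all genes and with equal sums over genes not of the mitochondrial genome. Leaving out each library in turn gave 0 to 2 calls for MRL5 in GX, 0 to 58 for MRL5 in WT, 0 to 1 for GX against WT under DMSO, 0 to 63 under MRL5 and 0 to 27 for the difference. The counts of 58, 63 and 27 came without WT MRL5 2, when the lone WT MRL5 mouse is assumed to vary like the other groups, and the 2 calls came without GX DMSO 1; the cause was not tested. The median of the 9 markers for MRL5 in WT was 0.54 with the library set as a covariate and 0.49 with only set 148. The median for the difference was -0.47, -0.41 and, without the 3 libraries, -0.43. In set 148 the WT DMSO group is WT DMSO 1 alone, which had most markers below their mean, and the covariate values lean on it too. The difference for Csf1 was 0.47 with the covariate and 0.55 in set 148.

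The following values changed sign, among them -0.45 for Cd68 in GX against WT under DMSO and 0.42 for Cd163 and 0.17 for Cd68 in the difference. For MRL5 in GX, Csf1r, Lyz2, C1qb and C1qc were -0.092, -0.058, -0.016 and -0.015 with the covariate, -0.10, -0.049, -0.039 and -0.017 in set 148, and -0.040, -0.037, -0.097 and -0.026 without the 3 libraries. For MRL5 in WT, Csf1 and Cd163 were 0.17 and 0.24 with the covariate and 0.060 and 0.26 in set 148, and Cd163 was 0.057 without the 3 libraries. For GX against WT under DMSO, C1qc and Adgre1 were -0.030 and -0.047 with equal sums, where the median of all genes was -0.11, and Adgre1 was -0.0017 with equal sums of the other genes. With the covariate Csf1r, Lyz2 and Cd68 were 0.19, 0.37 and 0.025, in set 148 Csf1r and Lyz2 were 0.16 and 0.41, and without the 3 libraries Lyz2 was 0.21. For the difference, Cd68 and Cd163 were -0.45 and -0.084 with the covariate and -0.31 and -0.10 in set 148, and Cd68 was -0.23 without the 3 libraries. The cause of these changes was not tested.

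Leaving out 1 library in turn, values that changed sign ran as follows. For MRL5 in GX, Csf1r ran from -0.10 to 0.11, Lyz2 from -0.053 to 0.23, C1qa from -0.078 to 0.21, C1qb from -0.054 to 0.22, C1qc from -0.078 to 0.21 and Adgre1 from -0.44 to 0.13. For MRL5 in WT, Csf1 ran from -0.32 to 0.034, Csf1r from -0.045 to 0.30, Lyz2 from -0.061 to 0.39, Adgre1 from -0.22 to 0.28 and Cd163 from -0.36 to 0.057. For GX against WT under DMSO, Lyz2 ran from -0.23 to 0.22, C1qb from -0.044 to 0.38, C1qc from -0.11 to 0.25 and Adgre1 from -0.32 to 0.26. Under MRL5, C1qa ran from -0.47 to 0.065, C1qb from -0.18 to 0.17 and C1qc from -0.31 to 0.0098. For the difference, Csf1r ran from -0.27 to 0.075, Lyz2 from -0.33 to 0.12, C1qb from -0.38 to 0.050, Cd68 from -0.049 to 0.33 and Adgre1 from -0.53 to 0.042. No paired analysis was possible because replicate numbers come from record order and tie no mice together. Depth is unknown, so what it limits could not be given.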

Other observations

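Downstream and regulatory complement genes were measured beside C1q. Of 22 listed, 21 were tested, and with MRL5 in GX mice 17 were higher and 4 lower (median log2 fold change 0.13), where 51.5% of all genes were higher (median 0.0055). Without GX MRL5 4, the library with the highest summed signal of these genes, 12 were higher and 9 lower, with a median of 0.009, and with the library set as a covariate 14 were higher, with a median of 0.038. The median was 0.19 without GX MRL5 1. None passed the adjusted test, where 0% of all genes did. The 1 with an unadjusted p under 0.05, where 4.13% of all genes were, was Masp1, a protease of the lectin pathway (log2 fold change 0.43, SE 0.17, adjusted p = 0.999 by limma). In WT mice 9 were higher and 12 lower, with a median of -0.06, where 49.7% of all genes were higher. The genes C1ra and C1s1, the proteases that C1q activates, had log2 fold changes of 0.0027 and 0.14 with MRL5 in GX mice.

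Genes of antigen presentation on MHC class II, carried by a further subset of heart macrophages, had a summed signal of 3475 to 5610 in GX MRL5 mice, against 3301 to 5257 in GX DMSO mice. In WT mice the sum was 3319 and 6831 with MRL5, against 3726 to 6316 with DMSO. With MRL5 in GX mice 4 of 7 were higher and 3 lower, with a median of 0.06, where 51.5% of all genes were higher. The sum of 5 mast cell genes was 78.6 to 141 in GX MRL5 mice, against 70.8 to 122 in GX DMSO mice, and the sum of 6 dendritic cell genes was 155 to 200 in GX MRL5 mice, against 146 to 188 in GX DMSO mice.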
